A study of Mus musculus with 4 samples.

Results

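STAT transcription factors and SOCS inhibitors, the output and the brake of the JAK-STAT pathway, were followed in whole mouse brain across an injection of LPS or PBS and across loss of Nav1.8-lineage neurons. The genes were taken by name, through the RefSeq accession attached to each array probe. They were the 6 STAT genes Stat2, Stat3, Stat4, Stat5a, Stat5b and Stat6 and the 3 SOCS genes Socs1, Socs2 and Socs3, 9 of the 23462 genes that had a named probe. Together they had 13 probes, and all 13 were well above background on all 4 arrays, so no member was lost to the filter on dim probes.

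In this pathway a cytokine brings together receptor chains that carry JAK kinases, the kinases phosphorylate STAT proteins, and the STATs enter the nucleus and switch on target genes. Stat3 serves the IL-6 family and leptin, Stat2 joins Irf9 in the interferon-activated complex ISGF3, Stat4 serves IL-12, Stat6 serves IL-4 and IL-13, and Stat5a and Stat5b serve growth hormone, prolactin and haematopoietic cytokines. SOCS genes are themselves STAT targets, and their products bind JAKs or receptors and shut the signal down. In the inflamed brain, Stat3 is best known for its role in reactive astrocytes.

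The 4 groups were Nav1.8CreROSA26DTA mice given lipopolysaccharide (LPS, from the outer membrane of Gram-negative bacteria), wild-type mice given LPS, Nav1.8CreROSA26DTA mice given PBS and wild-type mice given PBS, with 1 array each. The LPS dose was 20 mg/kg, injected intraperitoneally, and brains were collected 12 hours later. The labels give no time for the PBS brains, so each LPS minus PBS value takes them as collected alike. In Nav1.8CreROSA26DTA mice, Cre expressed under control of the Nav1.8 sodium channel gene switches on diphtheria toxin A at the ROSA26 locus, which kills the sensory neurons that have expressed Nav1.8. Those neurons lie in peripheral ganglia, which were not measured. The labels give no age or sex and do not say whether an array holds 1 mouse or a pool, so the group and the animal cannot be told apart. With 1 array per group, p-values rest on the gap between the genotypes' LPS responses and on a spread borrowed from other genes. They do not measure the spread between animals of a group.

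Between 66.5% and 69.5% of the spots of an array were well above background and 0 were saturated. All neuron, astrocyte, oligodendrocyte, microglia and endothelium markers were well above background on all 4 arrays. After LPS, 1000 of 17132 tested genes were higher and 834 lower at an adjusted p under 0.05 in limma's additive model of injection and genotype. That split was 974 and 463 after cyclic loess, 1043 and 433 in the deposited value table, 944 and 1223 with scaling to the median, 1133 and 833 with quantile normalization and 1088 and 1371 with normexp. No scaling moved the median LPS effect of all genes beyond −0.089 (scaling to the median) or 0.037 (value table), against −0.034 as reported here. Markers of neutrophils and monocytes did not all move alike with LPS. Their summed signal, in units of the array's 75th percentile, was 28.0 and 29.4 on the Nav1.8CreROSA26DTA and wild-type LPS arrays, against 11.2 and 7.44 on the Nav1.8CreROSA26DTA and wild-type PBS arrays. Ly6c2 made up most of each sum, at 4.33 and 4.59 on the log2 scale after LPS against 2.75 and 2.73 after PBS, in the same genotype order. Others did not rise in both genotypes. Elane read −1.44 and −1.24 after LPS against −0.91 and −1.29 after PBS. Ccr2, well above background on 1 array, read −8.08 and −8.01 against −4.83 and −6.21. Of these 12 markers 10 were tested and 5 passed as higher, while Cxcr2 was not well above background on any array. An LPS fit with 1 array left out holds no genotype term, so the genotypes are unequal between LPS and PBS in it, here and below. Such a fit cannot separate a change in the LPS effect from the genotype difference. The median LPS effect of the 10 markers was 1.89. It was 0.31 without the wild-type PBS array and 3.31 without the Nav1.8CreROSA26DTA PBS array. Without the intensity trend 2 passed as higher. Of 6 microglia markers 3 passed as lower, with sums of 30.5 and 30.3 after LPS against 42.2 and 34.6 after PBS, and 1 passed without the intensity trend. Of 12 lymphocyte markers 8 were tested and 0 passed for LPS, with sums of 22.0 and 27.3 after LPS against 26.03 and 29.1 after PBS. Most of each sum came from the Klrb1c probe, at 4.28 and 4.63 on the log2 scale after LPS and 4.53 and 4.73 after PBS. Cd3g, Cd8a, Ms4a1 and Ncr1 were dim on all 4 arrays, so these sums do not stand for lymphocytes as a whole. The part of these cells in the results below was not tested, and in RNA of whole tissue fewer cells of a type and less RNA per cell cannot be told apart.

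The first comparison asked which of these genes LPS altered in the brain. Socs3, Stat2 and Stat3 rose and no member fell. Socs3, the inhibitor that docks on IL-6-type receptors, was 3.38-fold higher, Stat2 1.73-fold and Stat3 1.54-fold. Socs1, Socs2, Stat4, Stat5a, Stat5b and Stat6 did not pass the test. Thus 3 of 9 members were called higher and 0 lower, against a background of 5.84% of all tested genes called higher and 4.87% called lower. In limma 4 members had an unadjusted p under 0.05, these 3 and Socs1, all of them higher. So had 4076 of all 17132 tested genes, in either direction. Both LPS arrays lay above both PBS arrays for 5 members, Socs3, Stat2, Stat3, Socs1 and Stat6, and below them for 1, Stat5b. The same held for 21.6% and 29.5% of all tested genes. The median LPS effect, given throughout as the log2 difference of LPS minus PBS averaged over both genotypes, was 0.21 over the 9 members, 0.098 over the STAT genes, 0.61 over the SOCS genes and −0.034 over all tested genes.

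**Figure D1:**
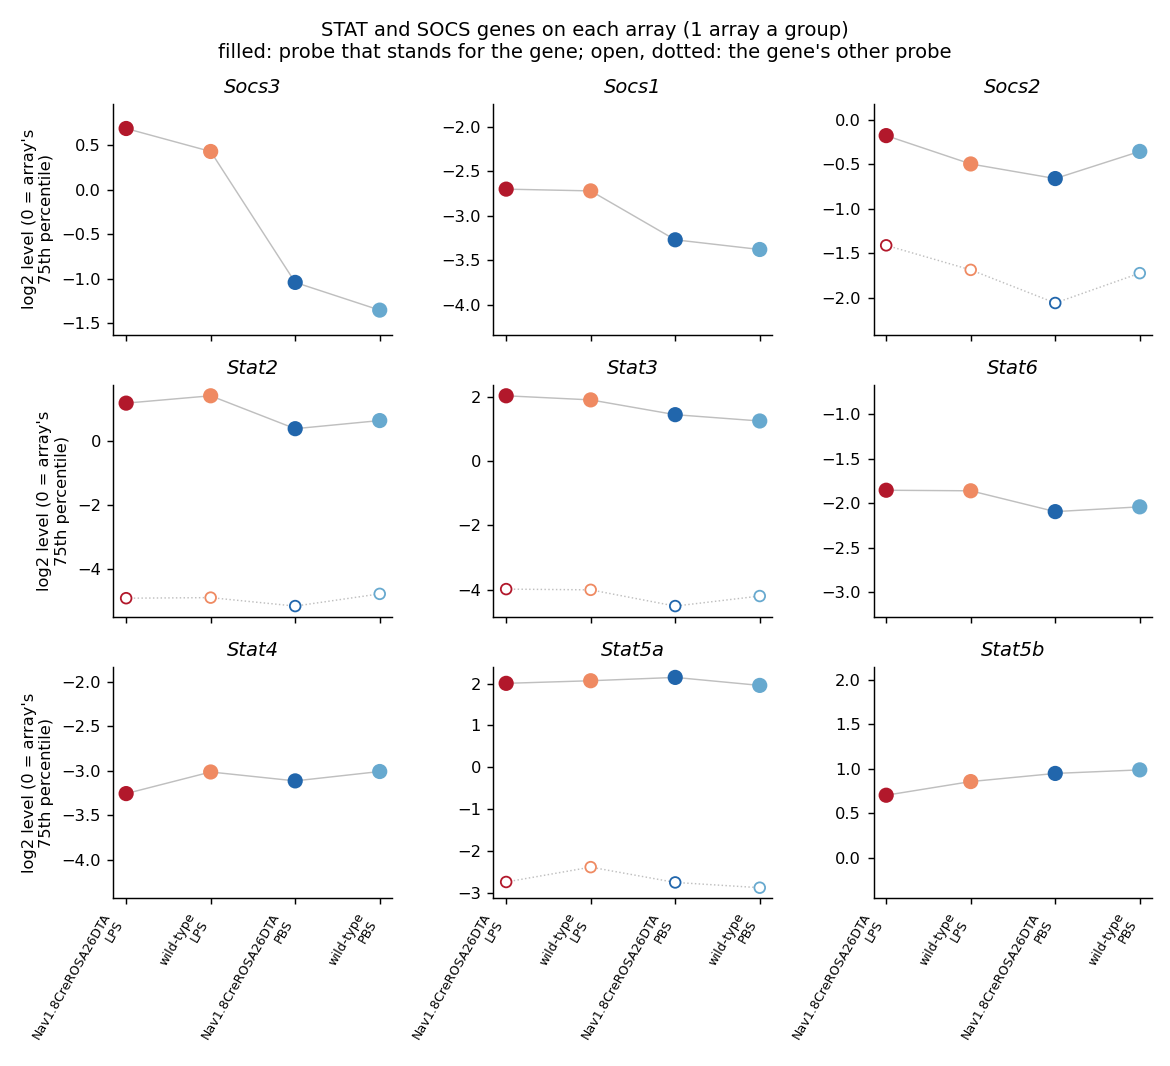
Log2 level of each STAT and SOCS gene on each of the 4 arrays (vertical axes, 0 is the array's 75th percentile), 1 point per array, with a gene's other probe as an open symbol. Each panel has its own axis, and levels of different probes are not comparable. Both LPS arrays lie above both PBS arrays for Socs3, Socs1, Stat2, Stat3 and Stat6 and below them for Stat5b.

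Among the STAT genes, Stat3 codes for the factor that carries IL-6-type signals. Its level, on the log2 scale where 0 is the array's 75th percentile, was 2.04 in Nav1.8CreROSA26DTA and 1.92 in wild-type after LPS, against 1.45 in Nav1.8CreROSA26DTA and 1.26 in wild-type after PBS. Both LPS arrays were higher, and in each injection the Nav1.8CreROSA26DTA array was the higher of its pair. The LPS effect was 0.62 ± 0.10 (limma standard error; 95% interval 0.41 to 0.84; adjusted p = 0.00226). The call ended without the Nav1.8CreROSA26DTA LPS array (0.56, adjusted p = 0.136), the wild-type LPS array (0.69, 0.0542) or the wild-type PBS array (0.52, 0.0840), and without the intensity trend (adjusted p = 0.105). A second Stat3 probe, annotated to another transcript, gave processed signals, not scaled between arrays, of 45.5 and 39.0 after LPS against 22.3 and 33.0 after PBS, in the same genotype order. Its effect was 0.36 ± 0.27 (adjusted p = 0.470, fitted over all named probes).

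Stat2, the interferon factor, stood at 1.18 in Nav1.8CreROSA26DTA and 1.41 in wild-type after LPS, against 0.38 in Nav1.8CreROSA26DTA and 0.64 in wild-type after PBS. The groups did not overlap, and here the wild-type array was the higher of each pair. The LPS effect was 0.79 ± 0.10 (95% interval 0.56 to 1.01; limma adjusted p = 0.000692). It ended as a call without the wild-type LPS array (0.67, adjusted p = 0.0860) or the Nav1.8CreROSA26DTA PBS array (0.66, 0.0791), without the intensity trend (0.0702), and as a mean over its probes (0.43, 0.113). The second Stat2 probe was much dimmer, with unscaled signals of 23.7 and 20.9 after LPS against 14.1 and 21.9 after PBS, in the same genotype order. Its LPS and PBS arrays overlapped, and its effect was 0.06 ± 0.34 (adjusted p = 0.938).

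The other STAT genes did not pass the test. Stat6, the factor of IL-4 and IL-13, read −1.85 and −1.86 after LPS in Nav1.8CreROSA26DTA and wild-type, against −2.10 and −2.04 after PBS in Nav1.8CreROSA26DTA and wild-type. The LPS arrays were both above the PBS arrays by a small step, with an effect of 0.21 ± 0.16 (95% interval −0.14 to 0.56; adjusted p = 0.476). Stat4, the factor of IL-12, read −3.26 in Nav1.8CreROSA26DTA and −3.02 in wild-type after LPS, against −3.12 in Nav1.8CreROSA26DTA and −3.01 in wild-type after PBS. Its groups overlapped, with an effect of −0.074 ± 0.20 (adjusted p = 0.876). The interval, −0.53 to 0.38, leaves room for a change of either sign.

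Stat5a and Stat5b are close paralogs that lie next to each other, and next to Stat3, in the order of protein-coding genes on mouse chromosome 11. Stat5b read 0.70 in Nav1.8CreROSA26DTA and 0.86 in wild-type after LPS, against 0.95 in Nav1.8CreROSA26DTA and 0.99 in wild-type after PBS. It was the member whose LPS arrays were both below the PBS arrays, and the effect of −0.19 ± 0.10 did not pass (95% interval −0.42 to 0.042; adjusted p = 0.315). Stat5a read 2.004 in Nav1.8CreROSA26DTA and 2.07 in wild-type after LPS, against 2.15 in Nav1.8CreROSA26DTA and 1.96 in wild-type after PBS. Its groups overlapped, and the effect was −0.015 ± 0.10 (95% interval −0.24 to 0.21; adjusted p = 0.954), while its second probe gave 0.25 ± 0.19 (adjusted p = 0.479). The 3 neighbours on chromosome 11 thus had LPS effects of −0.19, −0.015 and 0.62. Whether a Stat5a probe also binds Stat5b RNA was not tested.

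Among the SOCS genes, Socs3 had the largest LPS effect of the 9 members. It read 0.69 in Nav1.8CreROSA26DTA and 0.43 in wild-type after LPS, against −1.04 in Nav1.8CreROSA26DTA and −1.35 in wild-type after PBS. The groups did not overlap, and the Nav1.8CreROSA26DTA array was the higher of each pair. The LPS effect was 1.76 ± 0.12 (95% interval 1.49 to 2.02; limma adjusted p = 6.7e-06), which ranked 298 from the top among 17132 genes. Of all tested genes 3.24% were called higher by at least 2-fold, and Socs3 was the member among them. It was called in all 13 alternative settings, with effects of 1.58 to 1.91.

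Socs1, the inhibitor best known for braking interferon signals, read −2.70 in Nav1.8CreROSA26DTA and −2.72 in wild-type after LPS, against −3.27 in Nav1.8CreROSA26DTA and −3.38 in wild-type after PBS. The groups did not overlap, and the effect of 0.61 ± 0.20 was close to that of Stat3. Its standard error was larger and it did not pass the test (95% interval 0.17 to 1.06; adjusted p = 0.0848, unadjusted p = 0.0119 in limma). Socs1 was a dim gene, with unscaled signals of 111 and 94.9 after LPS against 52.6 and 58.1 after PBS, and with normexp background correction its effect was 0.20. It was called in 0 of 13 alternative settings.

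Socs2, which restrains growth hormone signalling, read −0.18 in Nav1.8CreROSA26DTA and −0.50 in wild-type after LPS, against −0.66 in Nav1.8CreROSA26DTA and −0.36 in wild-type after PBS. The groups overlapped, with an effect of 0.17 ± 0.15 (95% interval −0.17 to 0.52; adjusted p = 0.566). Its second probe gave 0.34 ± 0.17 (adjusted p = 0.239).

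**Figure D2:**
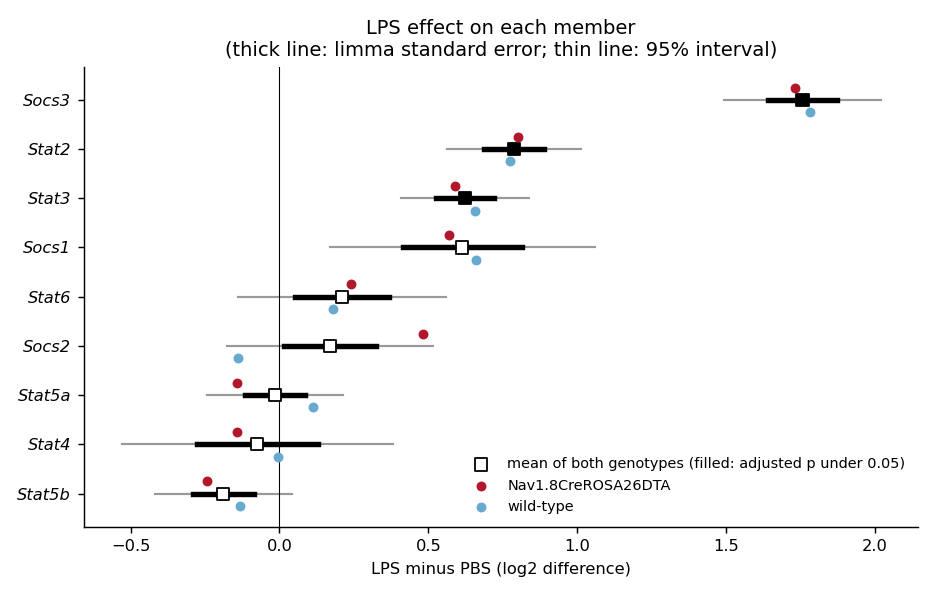
LPS minus PBS on the log2 scale (horizontal axis) for each member, with squares for the mean of both genotypes, thick lines for limma's standard error and thin lines for the 95% interval. Round points show the response in Nav1.8CreROSA26DTA and in wild-type. Socs3 at 1.76, Stat2 at 0.79 and Stat3 at 0.62 are filled, and Socs1 at 0.61 is open.

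The promoter of Socs3 is shown because Socs3 rose by more than 2-fold and is a known target of STAT factors, which bind GAS motifs (TTCNNNGAA). The 250 bases before its RefSeq start site (GRCm38.p6, chr11:117969367-117969616, minus strand) are printed with the motif in capitals.
Socs3: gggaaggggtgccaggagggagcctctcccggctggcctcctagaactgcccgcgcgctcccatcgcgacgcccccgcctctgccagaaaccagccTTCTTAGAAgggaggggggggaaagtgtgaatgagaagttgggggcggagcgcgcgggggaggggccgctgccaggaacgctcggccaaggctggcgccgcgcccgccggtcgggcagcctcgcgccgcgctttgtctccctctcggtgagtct
One GAS motif, TTCTTAGAA, stood at −154 to −146 from the start site. Motifs were searched on both strands from 250 bases before to 50 after each start site, and 8.3% of the 32851 mouse windows of that length held this one, which reads the same on either strand. Stat2 and Socs1 are shown as well, a choice made after their values were seen, because their windows held the interferon response motif (GAAA, any 2 bases, then GAAA, or its reverse complement), as 3.44% of windows did. Stat2 lies at chr10:128270248-128270497 (plus strand) and Socs1 at chr16:10785537-10785786 (minus strand), with motifs in capitals.
Stat2: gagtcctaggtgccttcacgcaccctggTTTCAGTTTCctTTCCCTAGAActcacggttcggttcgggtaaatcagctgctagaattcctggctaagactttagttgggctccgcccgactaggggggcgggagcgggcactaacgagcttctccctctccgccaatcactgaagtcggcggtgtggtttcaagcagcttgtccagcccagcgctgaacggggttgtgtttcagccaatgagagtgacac
Socs1: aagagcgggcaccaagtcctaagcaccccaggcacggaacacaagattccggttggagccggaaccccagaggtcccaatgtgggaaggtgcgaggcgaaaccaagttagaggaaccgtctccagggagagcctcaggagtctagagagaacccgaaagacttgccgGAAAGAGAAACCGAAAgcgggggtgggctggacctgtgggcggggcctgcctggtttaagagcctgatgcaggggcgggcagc
In Stat2 the interferon motif TTTCAGTTTC lay at −222 to −213, followed at −210 to −201 by TTCCCTAGAA, a match to the spaced GAS form with 4 bases between TTC and GAA that 6.95% of windows held. In Socs1 GAAAGAGAAA at −83 to −74 and GAAACCGAAA at −77 to −68 overlapped. The windows of Stat3, Stat5a, Stat5b and Stat6 held none of these letters. In Stat4 a second start site had GAAAGTGAAA at −97 to −88. In all, 8 of 9 members had a window, and a match describes letters, not binding.

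The genes whose pattern over the 4 arrays was most like that of Socs3 were H2-K2, Zmynd15 and Alox5. After centring each gene on its own mean, their Euclidean distances to Socs3 were 0.103, 0.126 and 0.129 log2 units among 16243 genes compared. H2-K2, a class I histocompatibility gene, had an LPS effect of 1.73 ± 0.10, Zmynd15 of 1.78 ± 0.25, and Alox5, which makes leukotriene precursors, of 1.84 ± 0.16. Which of several similar histocompatibility genes the H2-K2 value belongs to is uncertain, since such genes share sequence.

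The next question was whether the response differed between genotypes, for which 1 array per group allows no test. Socs3 was 3.32-fold higher after LPS in Nav1.8CreROSA26DTA and 3.44-fold higher in wild-type, log2 differences of 1.73 and 1.78. It was the single member at least 2-fold higher in either genotype, against a background of 3.1% of measured genes in Nav1.8CreROSA26DTA and 3.41% in wild-type. Stat2 differed by 0.80 in Nav1.8CreROSA26DTA and 0.78 in wild-type, Stat3 by 0.59 and 0.66, and Socs1 by 0.57 and 0.66, in the same genotype order. In Stat6 the differences were 0.24 in Nav1.8CreROSA26DTA and 0.18 in wild-type, and in Stat5b −0.24 and −0.13. Of the 9 members 0 had responses 2-fold or more apart, against a background of 2.51% of genes. The median size of the difference between the genotypes' responses was 0.089 for the members and 0.18 for all genes well above background on 4 arrays.

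Socs2 and Stat5a had responses of opposite sign in the genotypes, as did 32.2% of genes. Socs2 differed by 0.48 in Nav1.8CreROSA26DTA and by −0.14 in wild-type, a gap of 0.62. Its second probe gave 0.65 and 0.037, a gap of 0.61, so the probes had like gaps but not both an opposite sign. Stat5a differed by −0.14 in Nav1.8CreROSA26DTA and by 0.11 in wild-type, a gap of −0.25. Its second probe gave 0.011 and 0.49, both positive, with a gap of −0.48.

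**Figure D3:**
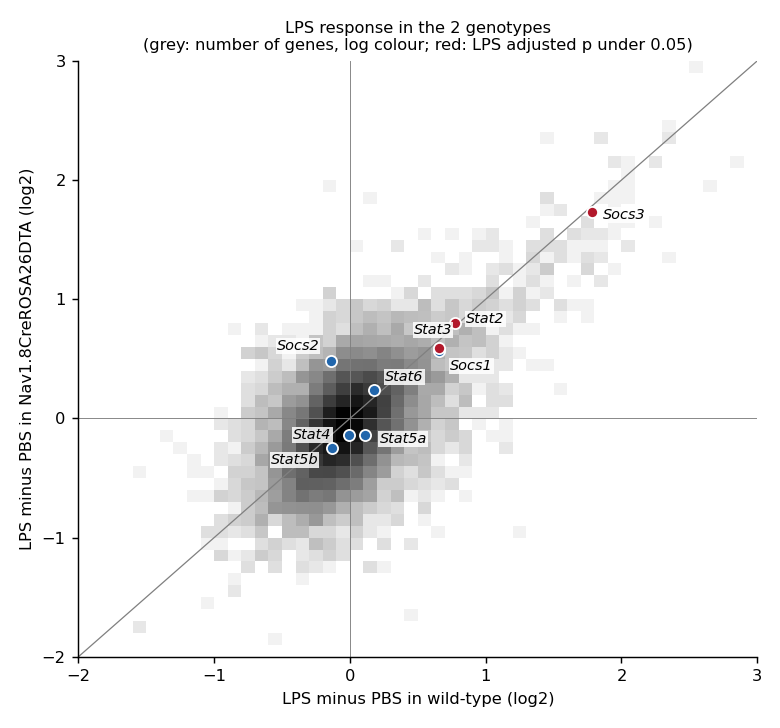
LPS minus PBS in Nav1.8CreROSA26DTA (vertical axis) against LPS minus PBS in wild-type (horizontal axis), both as log2 differences, with the number of genes in grey for the 16139 of 16244 genes within the axes. Socs3, Stat2, Stat3 and Socs1 lie near the line of equal response, and Socs2 at 0.48 and −0.14 lies off it.

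The last comparison asked whether loss of the Nav1.8 lineage by itself altered these genes. No member passed the test for Nav1.8CreROSA26DTA against wild-type averaged over both injections, against a background of 0.56% of genes called higher and 0.134% called lower. In limma 2 members had an unadjusted p under 0.05, as had 1766 of all 17132 tested genes, in either direction. Socs3 was 0.28 ± 0.12 higher in Nav1.8CreROSA26DTA (unadjusted p = 0.0359, adjusted p = 0.431), by 0.26 after LPS and 0.31 after PBS. Stat2 was lower, at −0.24 ± 0.10 (unadjusted p = 0.0386, adjusted p = 0.440), with −0.23 after LPS and −0.25 after PBS. Stat3 differed by 0.16 ± 0.10 (adjusted p = 0.637), and the remaining members lay between these values of Stat2 and Socs3.

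After LPS, 0 members were 2-fold apart between genotypes, against 1.2% of genes, and their differences ranged in size from 0.0063 (Stat6) to 0.32 (Socs2). After PBS, 0 members were 2-fold apart, against 1.62% of genes, with sizes from 0.040 (Stat5b) to 0.31 (Socs3). Markers of other cells also differed in level between genotypes. Oligodendrocyte markers summed to 148 in Nav1.8CreROSA26DTA and 66.8 in wild-type after LPS and to 134 and 92.0 after PBS, with 3 of 5 called higher in Nav1.8CreROSA26DTA. Erythroid markers summed to 156 and 98.4 after LPS and to 296 and 40.5 after PBS, in the same genotype order, with 1 of 4 called higher. Of 8 tested lymphocyte markers 1 was called higher. Neutrophil and monocyte markers had a median genotype difference of 1.32 with 0 of 10 called. Without the wild-type PBS array that median was 0.055. These markers did not all differ alike. S100a8 read 0.74 in Nav1.8CreROSA26DTA and 0.081 in wild-type after LPS and −0.52 and −4.80 after PBS. Ly6c2 read 4.33 and 4.59 after LPS and 2.75 and 2.73 after PBS, in the same genotype order. The markers summed to 28.0 and 29.4 after LPS and to 11.2 and 7.44 after PBS. Meningeal fibroblast markers had a median of 0.67 with 0 of 5 called, and summed to 15.7 and 12.7 after LPS and to 11.01 and 4.79 after PBS. All genotype calls ended without the intensity trend. Genotype fits with 1 array left out hold no injection term, so LPS is unequal between the genotypes in them and they cannot retest these calls. The part of these cells in the genotype values was not tested.

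Around the members, 15 lists of pathway genes, the 2 member lists included, described the rest of the cascade. Each list count below stands against 5.84% of all tested genes called higher and 4.87% called lower. Of the other SOCS family genes, 0 of 5 rose and 1 fell. Socs5 was lower after LPS by −0.64 ± 0.10 (limma adjusted p = 0.00182), with levels of 1.65 in Nav1.8CreROSA26DTA and 1.93 in wild-type after LPS, against 2.36 in Nav1.8CreROSA26DTA and 2.51 in wild-type after PBS. Cish, a STAT5 target that restrains STAT5, differed by 0.14 ± 0.12, Socs4 by −0.084 ± 0.21, Socs6 by −0.064 ± 0.14 and Socs7 by −0.26 ± 0.09, with adjusted p values of 0.107 to 0.858. Of the JAK kinases 1 of 4 rose. Jak3, the kinase of the common gamma chain, was higher by 0.84 ± 0.23 (adjusted p = 0.0467), whereas Jak1, Jak2 and Tyk2 differed by 0.024, 0.080 and 0.10 without passing. The median LPS effect was −0.084 over the other SOCS genes and 0.092 over the JAK genes. The call of Socs5 ended without the Nav1.8CreROSA26DTA LPS (−0.50, adjusted p = 0.149), Nav1.8CreROSA26DTA PBS (−0.72, 0.0714) or wild-type PBS array (−0.56, 0.117) and without the intensity trend (0.107). That of Jak3 ended without any 1 of the 4 arrays (0.142 to 0.333), and also with scaling to the median (0.0506), quantile normalization (0.0505), cyclic loess (0.0644), normexp (0.28, 0.361) and no intensity trend (0.0942).

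Of 14 genes listed as other brakes on the pathway, 3 rose and 0 fell, with a median of 0.077. Whether each of them, Lrrc25 included, acts on JAK-STAT signalling was not tested. Usp18, a protease that blocks the type I interferon receptor, rose by 3.17 ± 0.25, Lrrc25 by 2.25 ± 0.25 and Ptpn6, the phosphatase SHP-1, by 1.24 ± 0.16. The PIAS genes, other inhibitors of STAT proteins, lay between 0.00 and 0.082. Ptpn6 lost its call without Nav1.8CreROSA26DTA LPS (0.93, adjusted p = 0.187), Nav1.8CreROSA26DTA PBS (1.43, 0.0544) or wild-type PBS (1.04, 0.118). Lrrc25 lost it without Nav1.8CreROSA26DTA LPS (1.69, 0.120) or wild-type PBS (1.90, 0.0961). With normexp the effects of Usp18 and Lrrc25 were 1.96 and 0.77.

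Most receptor genes did not pass the test. In the list of interferon receptors with Irf9, 1 of 7 rose, Irf9, the partner of Stat2, by 1.75 ± 0.14 (limma adjusted p = 2.6e-05), and the 6 receptor chains did not pass. Of 9 IL-6 family and leptin receptor genes 3 rose, Osmr, which binds oncostatin M, by 2.63 ± 0.13, Il6ra by 0.94 ± 0.12 and Cntfr by 0.69 ± 0.11. The shared chain Il6st did not pass (0.30, adjusted p = 0.131). Of 9 tested genes of 12 in the list of common gamma, IL-12, IL-10 and IL-4 receptors 3 rose, Il4ra by 1.41 ± 0.14, Il2rg by 1.06 ± 0.14 and Il13ra1 by 0.85 ± 0.14. Of 9 growth hormone, prolactin and haematopoietic receptors 2 rose, Csf2rb2 by 2.31 ± 0.20 and Csf2rb by 2.25 ± 0.20, near-identical paralogs whose signals may not be separable. The medians of these 4 lists were 0.14, 0.30, 0.15 and 0.088.

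Of 29 ligand genes 17 were tested and 1 rose, 5.88% of those tested against 5.84% of all tested genes. Csf3, granulocyte colony-stimulating factor, was dim on the PBS arrays, so only a bound can be given, at least 12.3-fold higher after LPS. The other 12 ligands, Il6 and Ifng among them, were not tested because they were not well above background on 2 arrays.

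When single arrays were dropped, the calls of Il6ra (0.90, adjusted p = 0.0762 without Nav1.8CreROSA26DTA LPS), Cntfr, Il2rg and Il13ra1 ended at least once. Cntfr ended without Nav1.8CreROSA26DTA LPS (0.80, 0.143), wild-type LPS (0.58, 0.247) or Nav1.8CreROSA26DTA PBS (0.43, 0.216), and Il2rg without Nav1.8CreROSA26DTA LPS (0.73, 0.353), Nav1.8CreROSA26DTA PBS (1.36, 0.0681) or wild-type PBS (0.77, 0.215). Il13ra1 ended without Nav1.8CreROSA26DTA LPS (0.87, 0.125), wild-type LPS (0.83, 0.112) or wild-type PBS (0.65, 0.0696). The calls of Osmr, Irf9, Il4ra, Csf2rb, Csf2rb2 and Usp18 were made in all 13 alternative settings and that of Csf3 in all 12 that gave it a value. Without the intensity trend Il6ra (0.0807), Cntfr (0.123) and Il13ra1 (0.118) did not pass. With normexp the effects of Csf2rb, Csf2rb2 and Csf3 were 1.47, 1.32 and 1.59, and as a mean over its probes that of Il4ra was 0.67.

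**Figure D4:**
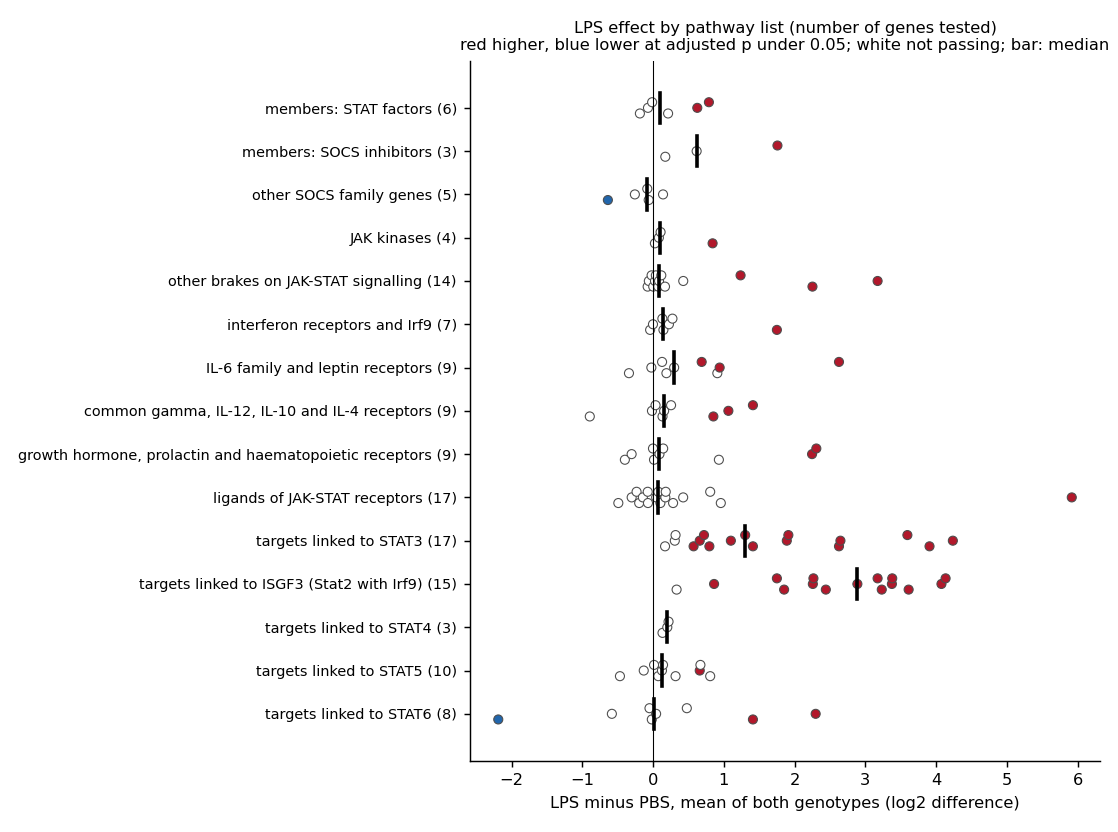
LPS minus PBS on the log2 scale, averaged over both genotypes (horizontal axis), for each tested gene of each list, with the number of genes tested in brackets and a bar at the median. The lists of STAT3 and ISGF3 targets have medians of 1.30 and 2.89, and the points of Csf3 and Ifi44 are fitted values on dim PBS signals.

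In the lists linked to STAT3 and ISGF3 most tested genes were higher after LPS, against 5.84% of all tested genes called higher. These lists were chosen with earlier results of these data known, so their high shares are no independent evidence. Of 17 tested genes of 18 linked to STAT3, 14 rose and 0 fell, with a median of 1.30. The count was 8 without the intensity trend and 10 to 11 with an array left out, and the median was 0.85 as a mean over each gene's probes. The metalloproteinase inhibitor Timp1 rose by 4.24 ± 0.11, the protease inhibitor A2m by 3.91 ± 0.23, the NF-kB coregulator Bcl3 by 3.59 ± 0.16 and Lrg1 by 2.65 ± 0.11. Of 15 tested genes of 18 linked to ISGF3, 14 rose and 0 fell, with a median of 2.89, which was 1.58 with normexp. Irf7, which amplifies interferon production, rose by 4.13 ± 0.21, Oasl2 by 3.61 ± 0.22 and the antiviral enzyme gene Oas1a by 3.38 ± 0.15, while Ifi44 was at least 14.8-fold higher. Most of these genes also answer to other factors, and several stand in more than 1 list, so no list reads out a single STAT.

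In the target lists of the STAT genes that did not pass, most genes did not pass either. Of 10 tested genes of 12 linked to STAT5, 1 rose, the cyclin gene Ccnd1 by 0.66 ± 0.10, with a median of 0.13. Of 3 tested genes of 8 linked to STAT4, 0 passed, with a median of 0.20. Of 8 tested genes of 12 linked to STAT6, 2 rose and 1 fell, with a median of 0.011. The chitinase-like gene Chil3 rose by 2.30 ± 0.40 and Il4ra by 1.41 ± 0.14, and the chemokine gene Ccl24 fell by 2.19 ± 0.48 on the log2 scale. Chil3 was also the single gene of the pathway lists called between genotypes, higher in Nav1.8CreROSA26DTA by 2.18 (limma adjusted p = 0.0487). That call was made in 4 of 13 alternatives and ended without the intensity trend. Of the neutrophil and monocyte markers, given above, 0 of 10 were called between genotypes. The part of such cells in the Chil3 value was not tested. The alternatives that left out an array held no injection term for genotype, so they could not retest the Chil3 genotype call. The LPS effect of Chil3 was 0.62 without the wild-type PBS array, against 3.97 without the Nav1.8CreROSA26DTA PBS array. It was 1.796 without Nav1.8CreROSA26DTA LPS and 2.80 without wild-type LPS. Its LPS call ended in all of these fits but that without Nav1.8CreROSA26DTA PBS. These LPS fits hold no genotype term, so the genotype difference of 2.18 enters them. Ccl24 lost its call without Nav1.8CreROSA26DTA LPS (−1.67, 0.203), Nav1.8CreROSA26DTA PBS (−1.66, 0.248) or wild-type PBS (−2.72, 0.0599), and Ccnd1 without wild-type LPS (0.56, 0.110), Nav1.8CreROSA26DTA PBS (0.59, 0.0952) or wild-type PBS (0.72, 0.0539). Without the intensity trend the calls of Chil3 (0.204), Ccl24 (0.191) and Ccnd1 (0.0952) ended. Normexp background correction, which adds an offset of 50 to every signal, kept these directions but gave smaller effects for dim genes, 1.50 for Chil3, −0.78 for Ccl24, 1.92 for A2m and 1.38 for Ifi44.

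**Figure D5:**
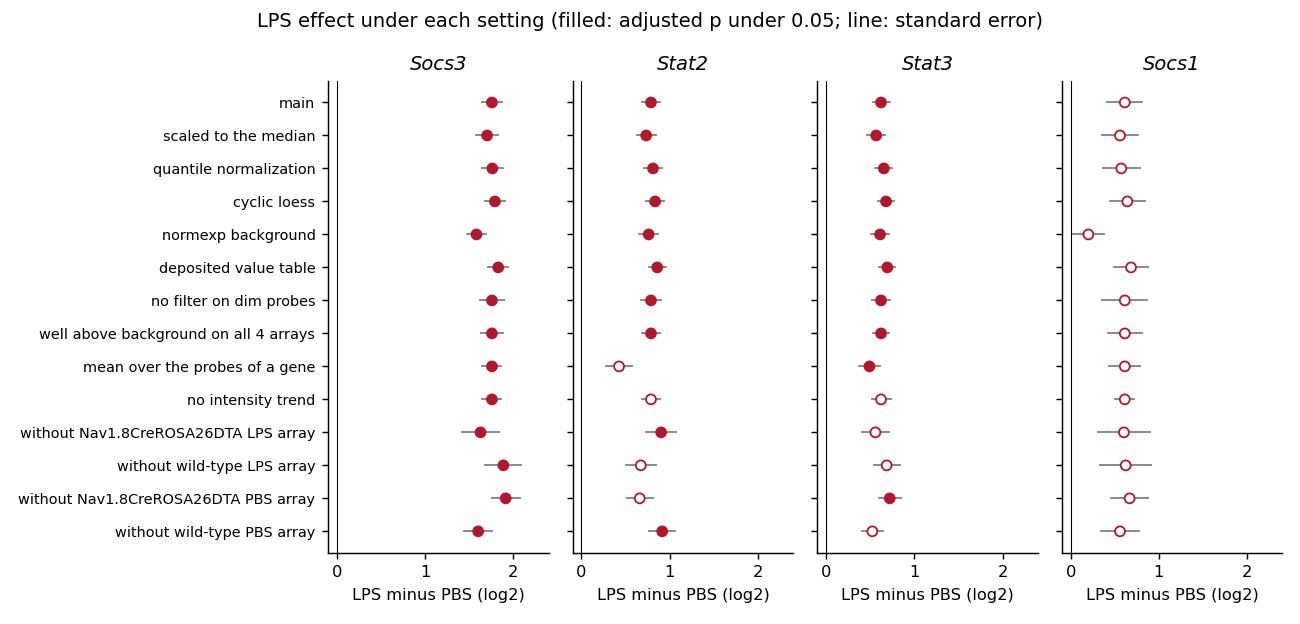
LPS minus PBS on the log2 scale (horizontal axis) for Socs3, Stat2, Stat3 and Socs1 as reported (main) and under the 13 alternative settings (vertical axis), with lines for the standard error and filled points where the adjusted p is under 0.05. Socs3 is filled throughout, Stat2 and Stat3 in 9 of 13 alternatives each, and Socs1 in 0.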

How the data were processed

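Members and gene lists were chosen with earlier results of these data known. Total RNA of whole brain was measured on 4 one-colour (Cy3) Agilent arrays, 1 per group, on 1 slide read in 1 scan. Slide rows held the injections and slide columns the genotypes, and the effect of position cannot be told apart from that of the group. The deposited intensity, the processed signal, was background-subtracted and detrended within the array but not scaled between arrays, per the file headers, which name Feature Extraction 12.0.3.1 (11.0.1.1 in the submitters' processing notes). Flags for spots well above background are 0 or 1 values of that software. In the series matrix the deposited value, also an intensity, was within 0.1% of the processed signal times 1 factor per array (1.57 to 2.09) for all spots but 1 of 59305 on the Nav1.8CreROSA26DTA LPS array, whose origin the sources used here do not give. The value table's column medians were 102, 103, 91.4 and 97.2 in the order Nav1.8CreROSA26DTA LPS, wild-type LPS, Nav1.8CreROSA26DTA PBS and wild-type PBS.

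Levels are log2 processed signals less the log2 of each array's 75th percentile (720, 626, 508 and 605 in that order). Outlier spots (81 to 96 per array) were left out, and spots of a probe were averaged. Of 56605 probes 33767 (59.7%) had 1 symbol in the RefSeq gene table of GRCm38.p6, and 22838 had none. Each gene was represented by its probe detected on the most arrays, with ties settled by the higher mean, and 17132 genes well above background on at least 2 arrays were tested. Limma 3.58.1 in R 4.3.3 fitted injection and genotype without interaction, with eBayes and an intensity trend. Its 1 residual degree of freedom is the difference between the genotypes' LPS responses, so each standard error leans on other genes (8.87 prior degrees of freedom). P-values were two-sided and adjusted over all tested genes by Benjamini-Hochberg, with a threshold of 0.05. Single pairs of arrays had no test, and genes at least 2-fold apart were counted. A gene dim on both arrays of a group was given as a bound, its bright mean over the higher of the lowest signal well above background and its own signal. The number of arrays limits the precision. The fit was tested on simulated data with known LPS effects. It recovered 6% of effects of 0.5 on the log2 scale, 66% of 1, 90% of 2 and 100% of 3. Of its 136 calls 5 were false.

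The text names all members, up to 4 called genes of each list with the largest effects, all JAK and other SOCS genes, and the 3 genes nearest in pattern to a member called by at least 2-fold. Lists, set with the members, held 6 STAT and 3 SOCS genes and their receptors, ligands, kinases, brakes and targets, and markers of 10 cell types. Called higher and lower after LPS were 0 and 1 of 6 neuron, 1 and 1 of 5 astrocyte and 2 and 2 of 6 endothelium markers. Neuron, astrocyte and endothelium markers summed to 226, 47.4 and 10.3 in Nav1.8CreROSA26DTA LPS, 234, 46.1 and 11.3 in wild-type LPS, 253, 49.1 and 11.3 in Nav1.8CreROSA26DTA PBS and 262, 41.6 and 10.6 in wild-type PBS. Choroid plexus and meningeal fibroblast markers summed to 0.368 and 15.7, 0.254 and 12.7, 0.260 and 11.0, and 0.166 and 4.79 in the same order. Alternatives covered scaling, background correction (normexp with offset 50 on median signals, in place of the planned mean signals), the value table, the filter, the choice of probe, the intensity trend and each array left out. Promoters are from RefSeq. Agilent probe sequences were not used here.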

Additional observations from a re-analysis of the deposited data

Results flagged for a closer look

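Socs2 and Stat5a were singled out because their LPS responses ran in opposite directions in the genotypes on the probe that represents each gene. For Socs2 the response in Nav1.8CreROSA26DTA minus that in wild-type was 0.62 on the log2 scale (0.48 in Nav1.8CreROSA26DTA, −0.14 in wild-type), and its second probe gave 0.65 and 0.037. For Stat5a it was −0.25 (−0.14 in Nav1.8CreROSA26DTA, 0.11 in wild-type), and its second probe gave 0.011 and 0.49. Neither second probe had responses of opposite sign. With 1 array per group neither difference was tested, and 32.2% of all genes well above background on 4 arrays had responses of opposite sign.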

How the results depend on the processing

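No called value turned its direction, and Socs3 was called for LPS in all 13 alternatives. The LPS effects of Stat5a and Stat4, not called, were positive in 7 and 1 of 13 alternatives against negative values as reported. LPS calls over all genes were 1575 higher and 1560 lower with no filter on dim probes, and 403 and 55 without the intensity trend. Genes called lower after LPS numbered 463 with cyclic loess, 1371 with normexp and 433 in the value table. With an array left out, 370 to 552 genes were called higher and 86 to 232 lower. Of the members, 1 (Socs3) was called without the intensity trend and 1 to 2 with an array left out. Genotype calls, higher and lower, were 153 and 29 when scaled to the median, 179 and 62 with quantile normalization, 21 and 8 with cyclic loess, 359 and 192 with normexp, 20 and 8 in the value table, 646 and 302 with no filter and 34 and 6 with the mean over a gene's probes. Limma called 0 genes either way for genotype without the intensity trend (1479 with an unadjusted p under 0.05) and 0 with any array left out (238 to 795). A fit on 3 arrays holds 1 term only, so for genotype it leaves LPS unequal between the arms, and Socs3 then ranged from −0.61 to 1.18. For LPS it leaves the genotypes unequal between the arms, so a call lost there cannot be laid to the LPS effect alone. Genes 2-fold apart with normexp, and then with no filter, were as follows, higher before lower. After LPS in Nav1.8CreROSA26DTA they numbered 267 and 85, then 1306 and 810. After LPS in wild-type they numbered 313 and 26, then 1311 and 654. Between genotypes they numbered 42 and 9, then 869 and 539, after LPS, and 52 and 21, then 958 and 520, after PBS. For the difference of the responses they numbered 45 and 70, then 1086 and 1299. The cause of these shifts was not tested, apart from the number of genes or arrays that a setting itself alters. The additive model compares LPS with PBS within the genotype pairs, and with 1 array per group no further pairing by replicate number exists.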
